A study of Mus musculus with 6 samples.

Results

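The 8 prostaglandin genes described here are 2 cyclooxygenases (Ptgs1 and Ptgs2), 3 terminal synthases (Ptgis, Ptges and Ptgds) and 3 receptors for prostaglandin E (Ptger1, Ptger3 and Ptger4). They were taken by name from the 28327 genes with a count in 4 Drop-seq tables of mouse glomerular cells and from the 49492 genes of 2 bulk RNA-seq tables. The glomerulus is the filter of the kidney, a tuft of capillaries held by mesangial cells, covered by podocytes and enclosed in a capsule lined by parietal epithelial cells. All 6 libraries came from 8-week-old male CD1 IGS outbred mice. The 4 Drop-seq libraries (replicates 1 to 4) and the dissociated bulk library held cells that had been taken apart from isolated glomeruli and fixed in 80% methanol in PBS, and the cells of the bulk library had also been sorted (95 ng of RNA). The whole bulk library held unfixed intact glomeruli (500 ng of RNA). The labels do not say whether the replicates came from separate animals, so the p-values cover only how far these 4 libraries differ from each other, a spread that could be technical.

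Prostaglandins are lipid signals made from arachidonic acid, which phospholipases free from membranes. The cyclooxygenases turn it into an unstable intermediate, which terminal synthases convert into prostacyclin (Ptgis), prostaglandin E (Ptges) or prostaglandin D (Ptgds), and G protein-coupled receptors read the products on the same or a neighbouring cell. In the kidney the pathway is known for its part in vessel tone, in renin release from the juxtaglomerular cells of the afferent arteriole and in salt and water handling along the distal nephron.

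Of 15465 deposited barcodes, 13993 were kept (at least 300 genes and at most 20% mitochondrial UMIs), with a median of 965 UMIs each. A UMI marks 1 captured mRNA molecule. Barcodes were shared between 2 or more libraries in 15 cases, 3 of them among the kept cells. Clusters made without the 8 genes, and without the other gene lists used here, were named from marker genes as podocyte-like (10458 cells), endothelial-like (1859), tubular-like (955), parietal epithelial-like (345), mural-like (321, a class that takes in mesangial, smooth muscle and renin cells) and immune-like (55, too few to test). Podocyte markers were found in every class: their share of all UMIs was 2.17% in the podocyte-like class, 1.44% in the parietal epithelial-like, 0.493% in the endothelial-like, 0.311% in the mural-like and 0.2% in the tubular-like class. Mixed cells, which held UMIs of at least 2 markers of another class, were 91.9% of the parietal epithelial-like, 41.9% of the endothelial-like, 38.6% of the tubular-like, 32.7% of the mural-like and 3.76% of the podocyte-like class. The part of these cells in the levels below was not tested, except where values without them are given.

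The 8 genes were distributed over different cell classes. Ptger4 held 1201 of the UMIs in kept cells, more than the other 7 together, and 91.8% of them lay in podocyte-like cells. That class made up 74.1% of kept cells on average over the libraries and also held 61.6% of Ptgds and 57.4% of Ptger1 UMIs. Shares therefore depend on class size as well as on level. Most Ptgs2 UMIs came from mural-like cells and most Ptges and Ptger3 UMIs from tubular-like cells, while Ptgs1 was shared by tubular-like and endothelial-like cells, and mural-like cells held the largest share of Ptgis, ahead of parietal epithelial-like ones. Counts were low: Ptgs1 had 122 UMIs in all, Ptgs2 31, Ptgis 114, Ptges 56, Ptgds 125, Ptger1 68 and Ptger3 42.

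**Figure D1:**
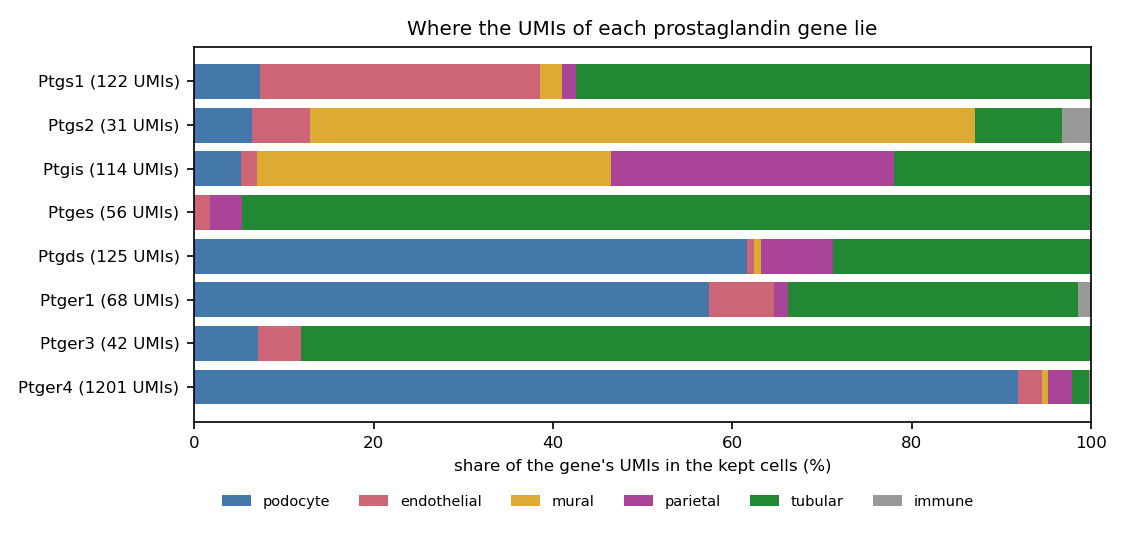
The share (percent) of each gene's UMIs in the kept cells of all 4 Drop-seq libraries that lay in each cell class, with the gene's UMIs in parentheses. Ptger4 is almost all podocyte-like (91.8%), Ptges (94.6%) and Ptger3 (88.1%) almost all tubular-like, and Ptgs2 mostly mural-like (74.2%). Shares depend on class size as well as on level: podocyte-like cells held 12788981 UMIs, tubular-like cells 2139229 and mural-like cells 299167.

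UMIs were summed per library and class, and each class was compared with the mean of the other 4 by edgeR's quasi-likelihood test with the library as a block and Benjamini-Hochberg adjustment over 7639 genes. Only Ptgs1, Ptgis and Ptger4 passed the filter on low counts, which a gene can pass through the classes where it is high, so the counts of calls are given as a description. In podocyte-like cells 1 of the 3 was called higher and 2 lower, where 25.5% of all genes tested were called higher and 20.1% lower. For endothelial-like cells the counts were 1 higher and 2 lower (background 27.7% and 20.5%), and for tubular-like cells 1 and 1 (26.7% and 26%). Mural-like cells had 1 higher and 0 lower (12% and 9.79%), and parietal epithelial-like cells 2 higher and 0 lower (10.1% and 4.63%), with no further call by DESeq2 and no unadjusted p under 0.05 among the pairs not called. The other 5 genes were tested in a second fit with no filter, over 27782 genes. There 4 were higher and 0 lower in tubular-like cells (background 13.1% and 5.99%), 1 was higher and 0 lower in mural-like cells (3.78% and 2.74%), 1 was higher and 0 lower in parietal epithelial-like cells (1.99% and 2.05%), and 0 were higher and 1 lower in endothelial-like cells (10.1% and 4.88%). In podocyte-like cells edgeR's test called none of the 5 in that fit, none had an unadjusted p under 0.05, and DESeq2 called 0 (background 15.2% higher and 3.81% lower). There the folds of Ptges and Ptgs2 could not be estimated, and that of Ptger3 had an SE of 7.16. Against all other cells summed, with no filter, edgeR called Ptges (log2 fold -7.68, adjusted p = 3.3e-23), Ptger3 (-4.83, 1.5e-13) and Ptgs2 (-4.84, 2.2e-09) lower in podocyte-like cells. Ptgds (adjusted p = 0.0561) and Ptger1 (0.0502) were not called there.

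**Figure D2:**
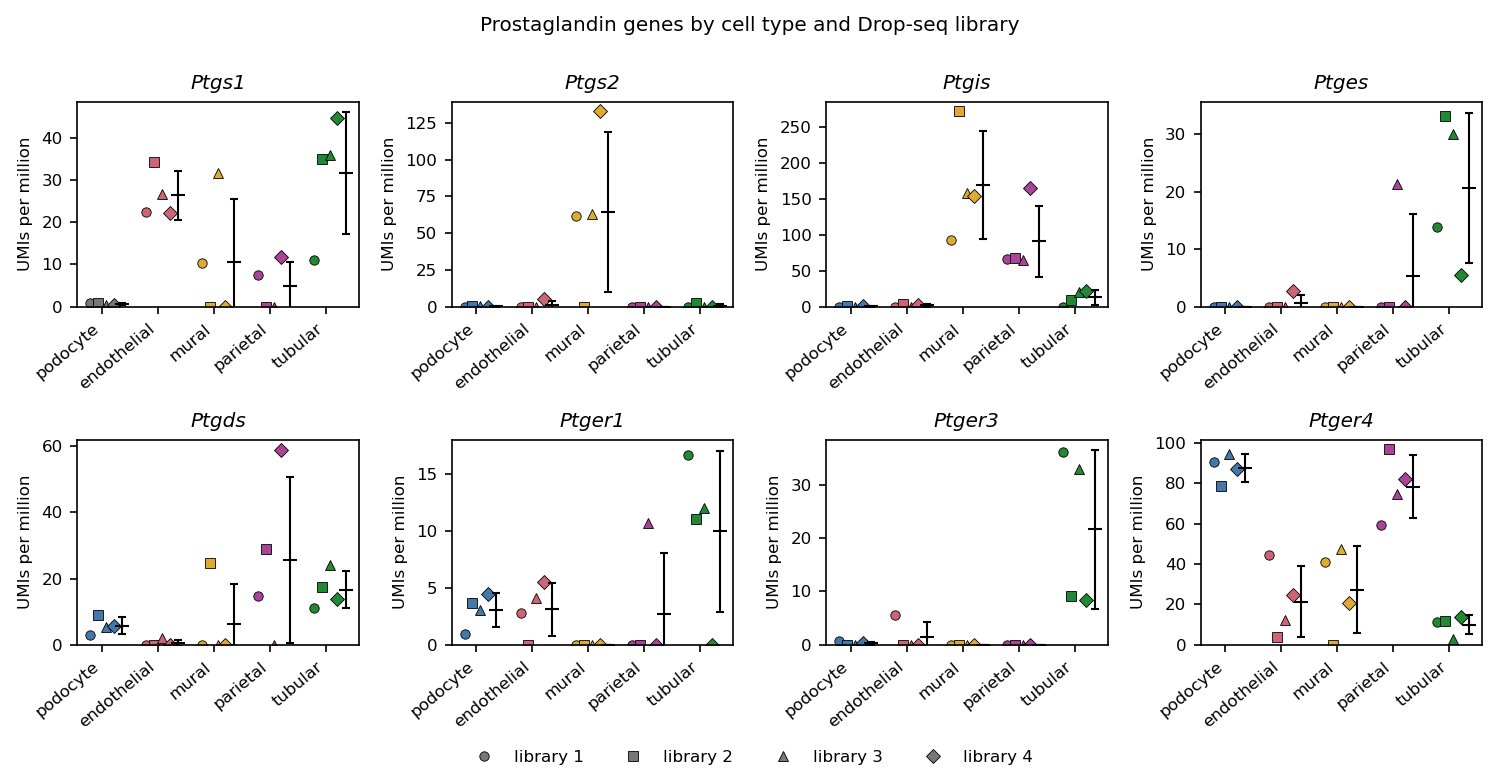
CPM (UMIs per 1000000) of each prostaglandin gene in the summed cells of 5 cell classes, 1 symbol per Drop-seq library, with the mean and SD (black, n = 4) at the right of each class. Vertical scales differ between panels. Ptger4 lies at 78.4 to 94.4 in podocyte-like cells, and 3 of 4 libraries show Ptgs2 in mural-like cells while library 2 is at 0.

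Ptgs1 encodes the constitutive cyclooxygenase. The gene lies on mouse chromosome 2 at chr2:36230426-36252272 (GRCm38, plus strand). In tubular-like cells it had 11.1, 35.0, 36.0 and 44.6 UMIs per 1000000 UMIs of the class (CPM) in libraries 1 to 4 (mean 31.7 ± 14.4, SD, n = 4), and in endothelial-like cells 22.3, 34.3, 26.6 and 22.1 (26.3 ± 5.73). It averaged 10.5 ± 14.9 in mural-like cells, with 3 UMIs in all, 4.78 ± 5.80 in parietal epithelial-like cells and 0.658 ± 0.312 in podocyte-like cells. The tubular-like and endothelial-like ranges overlapped, and every library of both lay above all 4 podocyte-like sums. Against the mean of the other classes Ptgs1 was higher in tubular-like cells (log2 fold 2.71 ± 0.40 SE, adjusted p = 9.6e-09, edgeR) and in endothelial-like cells (2.11 ± 0.45, adjusted p = 4.3e-05), and lower in podocyte-like cells (-4.13 ± 0.76, adjusted p = 3.3e-06). The pooled level in tubular-like cells was 46.5 times that in podocyte-like cells (95% interval 23.1 to 106, counting error only).

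Within the endothelial-like cells, Ptgs1 had 15 UMIs (46.3 CPM) in subcluster 2, whose leading genes include Calca, Plac8 and the arterial marker Sox17, and 19 UMIs (25.0 CPM) in subcluster 1, led by Ehd3 and Kdr of the glomerular capillary. The ratio of the 2 levels was 1.85 with a counting interval of 0.876 to 3.85. No UMI was found among the 118 cells of subcluster 4, led by Mgp, Vcam1 and Fbln5, which puts the level there under the 30.8 CPM that a count of 0 allows.

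Ptgs2, the inducible cyclooxygenase, lies at chr1:150100031-150108227 (plus strand) and was the least counted of the 8. In mural-like cells it had 61.4, 0, 63.4 and 133 CPM in libraries 1 to 4 (64.4 ± 54.3, SD, n = 4), from 6, 0, 4 and 13 UMIs. Library 2, at 0, also held the fewest mural-like cells (38). All other kept cells together had 8 UMIs, of which 3 were in tubular-like, 2 in endothelial-like, 2 in podocyte-like and 1 in immune-like cells, and parietal epithelial-like cells had none. The pooled level in mural-like cells was 162 times that in all other kept cells (counting interval 70.0 to 419), and the gene was higher there in the fit with no filter (adjusted p = 3.8e-15, edgeR). A Ptgs2 UMI was seen in 13 of 321 mural-like cells (4.05%, exact interval 2.17 to 6.83%), against 2 of 10458 podocyte-like cells (0.0191%), with median depths of 777 and 1015.5 UMIs.

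The mural-like cells that carried Ptgs2 were set beside the rest of their class. Of the 13, 1 cell also held a UMI of Ren1, which encodes renin (7.69%), against 51 of the 308 mural-like cells without Ptgs2 (16.6%). Akr1b7, a further renin-cell marker, was seen in 4 of the 13 (30.8%) and 110 of the 308 (35.7%), while its level ran the other way, at 1514 CPM in the 13 cells and 879 CPM in the 308. The smooth muscle actin gene Acta2 was seen in 6 of the 13 (46.2%) and 211 of the 308 (68.5%), and the mesangial integrin chain Itga8 in 4 (30.8%) and 43 (14.0%). These markers were looked up after the Ptgs2 cells had been seen, and the shares were not tested. By subcluster, 18 of the 23 UMIs lay in mural subcluster 2 (160 CPM, in 3 of 4 libraries) and 3 in subcluster 1 (27.1 CPM), a ratio of 5.91 with a counting interval of 1.73 to 31.3. The counting intervals for Ptgs2, here and for the whole mural-like class, treat each UMI as independent, while the 23 UMIs came from 13 cells. They also leave out the spread between libraries. Smooth muscle markers made up 1.31% of UMIs in subcluster 2 and 1.18% in subcluster 1, renin-cell markers 0.767% and 1.45%, and mesangial markers 0.0587% and 0.227%. Neither subcluster had a marker among its leading genes, so they carry no name. Tubular subclusters held no macula densa-like group, the segment for which Ptgs2 is best known, and 3 Ptgs2 UMIs in library 2 were all that tubular-like cells gave.

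The promoters of the cyclooxygenase pair are shown because most UMIs of the 2 genes lay in different classes, and that of Ptger4 because it carried most UMIs. Each is 250 bases before the annotated start and the 30 from it on, 5′ to 3′ on the gene's strand (RefSeq, GRCm38.p6), at chr2:36230176-36230455, chr1:150099781-150100060 and, on the minus strand, chr15:5244158-5244437. Capitals mark matches on either strand to 6 motifs, which were the core of the cAMP response element (CGTCA), the box bound by the general factor TBP (TATAAA), the E-box of helix-loop-helix factors (CACGTG), the GC box bound by Sp1 (GGGCGG), the site of the AP-1 factors (TGAGTCA) and the box bound by NF-Y (CCAAT).
Ptgs1: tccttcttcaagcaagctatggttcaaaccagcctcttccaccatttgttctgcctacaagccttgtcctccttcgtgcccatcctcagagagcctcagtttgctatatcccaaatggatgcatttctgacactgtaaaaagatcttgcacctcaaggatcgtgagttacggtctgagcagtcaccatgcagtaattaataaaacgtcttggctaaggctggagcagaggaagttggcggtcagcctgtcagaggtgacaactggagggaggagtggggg
Ptgs2: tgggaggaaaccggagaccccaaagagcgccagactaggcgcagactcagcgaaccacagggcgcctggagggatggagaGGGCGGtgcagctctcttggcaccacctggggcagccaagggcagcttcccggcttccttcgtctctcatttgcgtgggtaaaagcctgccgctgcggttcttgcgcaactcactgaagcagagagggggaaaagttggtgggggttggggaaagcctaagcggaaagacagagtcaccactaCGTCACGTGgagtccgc
Ptger4: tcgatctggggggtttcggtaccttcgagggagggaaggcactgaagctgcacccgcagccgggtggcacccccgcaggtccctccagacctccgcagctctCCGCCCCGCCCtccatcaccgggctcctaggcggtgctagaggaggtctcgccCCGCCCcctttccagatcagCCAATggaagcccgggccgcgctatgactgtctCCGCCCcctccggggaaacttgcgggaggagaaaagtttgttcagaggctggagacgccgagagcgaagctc
None of the 6 motifs was found in the Ptgs1 window, whose GC content is 49.6%, where the median of 32851 promoters is 52.5%. The Ptgs2 window (61.4% GC) held a GC box at position 81, CGTCA at position 264 and CACGTG at position 267, the last 2 overlapping, with position 251 as the annotated start. CGTCA was found in 19.9% of all promoter windows, CACGTG in 6.79% and GGGCGG in 34.7%. The Ptger4 window (66.8% GC) held 4 GC boxes, all as CCGCCC and the first 2 sharing a base, and a CCAAT, a motif of 36.1% of windows. The letters are a description of the windows and were not related to the levels.

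Ptgis encodes prostacyclin synthase and lies at chr2:167191805-167240604 (minus strand). It had 92.1, 272, 158 and 153 CPM in mural-like cells (169 ± 74.8, SD, n = 4) and 66.4, 67.7, 64.2 and 165 in parietal epithelial-like cells (90.7 ± 49.2). Tubular-like cells had 0, 9.20, 21.0 and 22.3 (13.1 ± 10.5), endothelial-like cells averaged 1.64 ± 1.95 and podocyte-like cells 0.455 ± 0.641. Mural-like and parietal epithelial-like ranges overlapped, and each of their 8 sums lay above every sum of the other 3 classes. Ptgis was higher in mural-like cells (log2 fold 4.62 ± 0.44 SE, adjusted p = 2.1e-15, edgeR) and in parietal epithelial-like cells (3.71 ± 0.45, adjusted p = 1.4e-10), and lower in endothelial-like (-3.56 ± 0.81, adjusted p = 0.00014) and podocyte-like cells (-5.23 ± 0.85, adjusted p = 2.2e-07). Prostacyclin synthase is well known from vessel walls, and here 2 UMIs fell on 1859 endothelial-like cells against 45 on 321 mural-like cells, a pooled ratio of 111 in favour of mural-like cells (counting interval 28.9 to 942).

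Mural markers had a summed share of 2.47% in the mural-like class and 0.0852% in the parietal epithelial-like class, where 3 of the 12 were at 0. Tagln alone made up most of the share in the parietal epithelial-like class, at 702 ± 216 CPM (SD, n = 4), and the parietal epithelial markers of that class summed to 0.0543%. The pooled Ptgis level in mural-like cells was 1.74 times that in parietal epithelial-like cells (counting interval 1.10 to 2.78). Within mural-like cells subclusters 2 and 1 had 187 and 199 CPM, from 21 and 22 UMIs, a ratio of 0.940 with a counting interval of 0.492 to 1.79, where that of Ptgs2 was 5.91. In tubular-like cells 23 of 25 Ptgis UMIs lay in the distal convoluted tubule-like subcluster (17.4 CPM).

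Ptges encodes the inducible, microsomal prostaglandin E synthase and lies at chr2:30889471-30929863 (minus strand). It had 13.9, 33.1, 29.99 and 5.57 CPM in tubular-like cells (20.6 ± 13.1, SD, n = 4). Tubular-like cells held 53 of its 56 UMIs, parietal epithelial-like cells 2 and endothelial-like cells 1. In 10458 podocyte-like cells there was no UMI, which allows up to 0.235 CPM (floor of 3 UMIs over the 4 libraries). The pooled tubular-like level was 106 times that floor, and the counting interval of the ratio between the 2 classes began at 82.9. Ptges was higher in tubular-like cells in the fit with no filter (adjusted p = 6.6e-18, edgeR), 124 times the level of all other kept cells (counting interval 40.2 to 621), and DESeq2 did not call it (adjusted p = 0.213). At a mitochondrial limit of 10% the tubular-like class fell to 324736 UMIs, against 2139229 at the 20% limit, and the pooled Ptges level was 55.4 CPM from 18 UMIs, against 24.8 CPM.

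The tubular UMIs of Ptges were concentrated in 1 subcluster. The connecting tubule and principal-like cells (subcluster 3, 136 cells, led by Aqp2, Fxyd4, Hsd11b2 and Avpr2) held 48 of the 53, with 5, 35, 8 and 0 in libraries 1 to 4, or 158 CPM. All other tubular-like cells had 5 UMIs, 4 of them among 54 intercalated-like cells, which gives a ratio of 57.9 (counting interval 23.2 to 186). Among the 3 tubular subclusters large enough to test, Ptges was higher in subcluster 3 (log2 fold 8.29 ± 0.91 SE, adjusted p = 3.2e-11, edgeR), where 4.57% of 3916 genes were called higher and 5.69% lower. Ptges could pass the filter on low counts through subcluster 3, where it is high, and its fold in subcluster 1 could not be estimated. The call and the size of the fold are therefore a description. Without library 2, which gave 35 of the UMIs, no estimate was obtained for Ptges in this subcluster, so the call was not checked without that library. Ptgs1, its upstream partner, had 72.3 CPM in the same subcluster, 27.2 in the distal convoluted tubule-like cells and 32.0 in subcluster 2, and did not pass the test of subcluster 3 against the other 2 (log2 fold 1.35 ± 0.56, adjusted p = 0.14, edgeR). In tubular subcluster 1 (background 11.1% higher, 7.56% lower) and subcluster 2 (12.2% and 9.88%) edgeR called neither gene, and DESeq2 called Ptges lower in subcluster 1 (adjusted p = 0.00929).

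**Figure D3:**
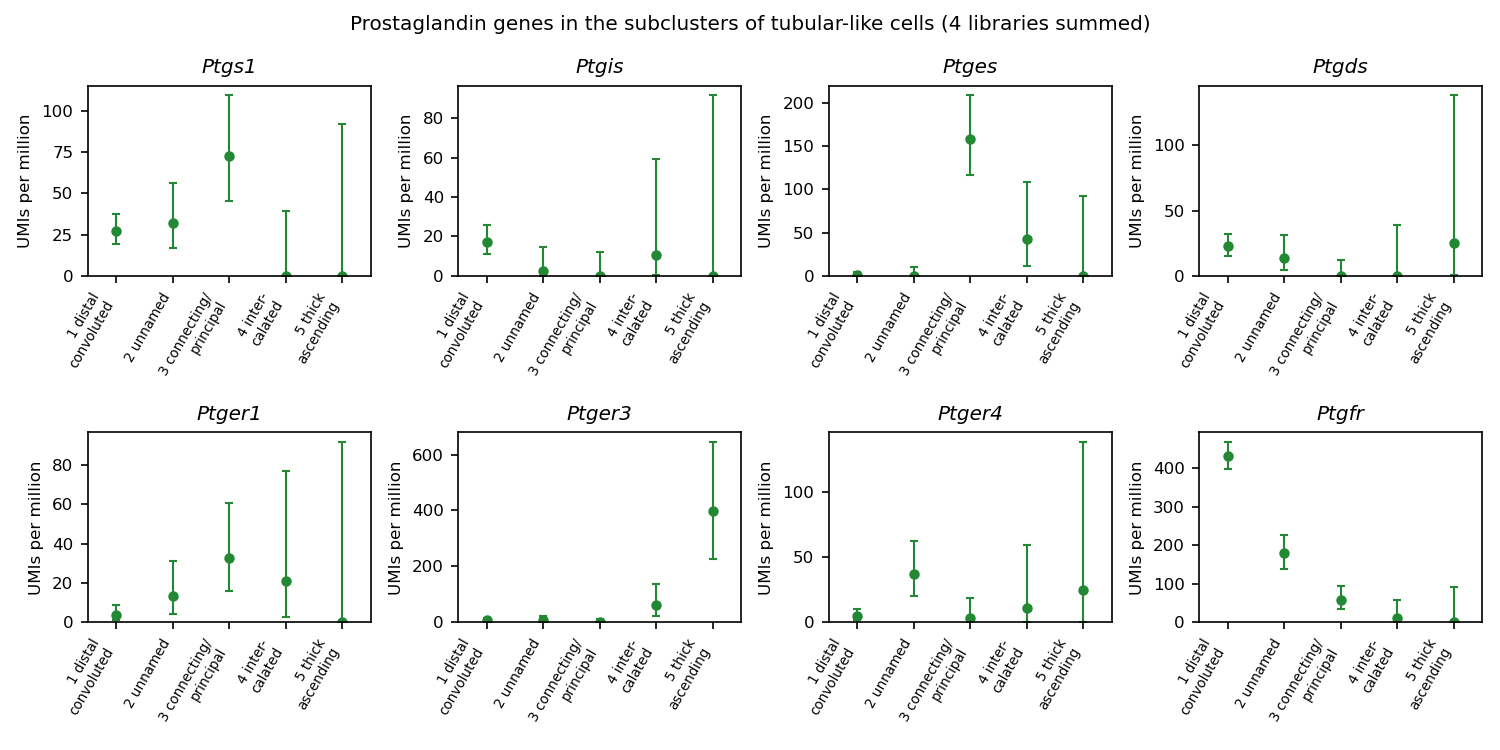
Pooled CPM of 7 prostaglandin genes and of Ptgfr in the 5 subclusters of tubular-like cells, all 4 Drop-seq libraries summed, with exact 95% Poisson intervals (counting error only). Vertical scales differ between panels. Ptges is highest in subcluster 3 (158), Ptger3 in subcluster 5 (398, 23 cells) and Ptgfr in subcluster 1 (432).

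Ptgds, at chr2:25466709-25470046 (minus strand), encodes the lipocalin-type prostaglandin D synthase. It was counted in every podocyte-like and tubular-like sum and in 3 of 4 parietal epithelial-like sums. Parietal epithelial-like cells had 14.8, 29.0, 0 and 58.8 CPM (25.6 ± 25.1, SD, n = 4, 10 UMIs), tubular-like cells 11.1, 17.5, 24.0 and 13.9 (16.6 ± 5.56) and podocyte-like cells 2.79, 8.97, 5.27 and 5.78 (5.70 ± 2.54, 77 UMIs). Endothelial-like and mural-like cells had 1 UMI each. In the fit with no filter Ptgds was higher in tubular-like cells (log2 fold 2.14 ± 0.48, adjusted p = 9.7e-05, edgeR) and in parietal epithelial-like cells (2.20 ± 0.67, adjusted p = 0.03), and lower in endothelial-like cells (-3.45 ± 1.08, adjusted p = 0.0121). The parietal call was lost without library 4 (adjusted p = 0.853), library 1 (0.138) or library 2 (0.0724), with no library block (0.0615) and against all other cells summed (0.283), and the endothelial call without library 4 (0.0587). The tubular call was lost when the mitochondrial limit was 10%, which left 4 of 36 UMIs (log2 fold 1.25, adjusted p = 0.872).

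Ptger4 encodes the EP4 receptor, which raises cAMP, and lies at chr15:5206661-5244187 (minus strand). It had the most UMIs of the 8 in podocyte-like cells, with 90.3, 78.4, 94.4 and 87.0 CPM (87.6 ± 6.80, SD, n = 4). Parietal epithelial-like cells had 59.1, 96.7, 74.9 and 82.3 (78.2 ± 15.7), mural-like cells 41.0, 0, 47.5 and 20.4 (27.2 ± 21.5), endothelial-like cells 44.7, 3.82, 12.3 and 24.8 (21.4 ± 17.8) and tubular-like cells 11.1, 11.96, 2.999 and 13.9 (10 ± 4.81). Podocyte-like and parietal epithelial-like ranges overlapped, and each of their sums lay above all sums of the other 3 classes. The receptor was higher in podocyte-like cells (log2 fold 1.65 ± 0.18 SE, adjusted p = 7.6e-13, edgeR) and lower in tubular-like cells (-1.72 ± 0.36, adjusted p = 2.5e-05), a call lost at the 10% mitochondrial limit (-0.78, adjusted p = 0.412). A Ptger4 UMI was seen in 9.05% of podocyte-like cells and 1.99% of tubular-like cells, with median depths of 1015.5 and 1741 UMIs, and in 3.97% and 1.07% after thinning to 500 UMIs per cell, where 659 and 21 shallower cells were left out.

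The remaining 2 calls for Ptger4 were lost under more of the settings tried. It was higher in parietal epithelial-like cells, whose UMIs held 1.44% of podocyte markers, against the mean of the other classes (1.33 ± 0.36, adjusted p = 0.00478, edgeR; 0.0633 without library 2) but not against all other cells summed (-0.02 ± 0.30, adjusted p = 0.991), a sum that is mostly podocyte-like and in which 1.83% of genes were called higher and 4.25% lower. It was lower in endothelial-like cells (-0.82 ± 0.33, adjusted p = 0.0356), a call lost without library 2 (adjusted p = 0.212), without library 3 (0.242), with no library block (0.0523), with no filter (0.0943), at 500 genes per cell (0.302) and without mixed cells (0.554). Within endothelial-like cells 16 of 32 UMIs lay in subcluster 3, where podocyte markers made up 1.59% of UMIs, and within tubular-like cells 14 of 23 lay in subcluster 2, where they made up 1%. In the capillary-type subcluster 1 the Ptger4 level was 14.5 CPM, with podocyte markers at 0.222%, and in distal convoluted tubule-like cells 4.53, with podocyte markers at 0.0505%.

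Ptger3 encodes the EP3 receptor, which lowers cAMP, and lies at chr3:157566892-157645888 (plus strand). It had 36.1, 9.20, 33.0 and 8.36 CPM in tubular-like cells (21.7 ± 14.9, SD, n = 4), which held 37 of 42 UMIs. Podocyte-like cells had 3 UMIs, endothelial-like cells 2, and mural-like and parietal epithelial-like cells none. Every tubular-like sum lay above all sums of the other classes, and the gene was higher in tubular-like cells in the fit with no filter (adjusted p = 1.1e-14, edgeR). That call was lost at a mitochondrial limit of 10%, which left 3 of the 37 UMIs (adjusted p = 0.939). The 23 thick ascending limb-like cells of subcluster 5 (led by Slc12a1, Cldn10 and Cldn16) held 16 of the 37, in libraries 1 to 3, or 398 CPM, 39.8 times the level of the other tubular-like cells (counting interval 19.4 to 80.1). Intercalated-like cells had 63.7 CPM from 6 UMIs and distal convoluted tubule-like cells 9.05 from 12. These 2 groups and subcluster 5 were too small, or Ptger3 too low in them, for a test.

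Ptger1 encodes the EP1 receptor, which acts through calcium, and lies at chr8:83666678-83672753 (plus strand). Whether the authors counted by strand is not given in the sources used here, and the Ptger1 values are uncertain for that reason. Tubular-like cells had 16.7, 11.0, 12 and 0 CPM (9.93 ± 7.06, SD, n = 4), endothelial-like cells 3.10 ± 2.35 and podocyte-like cells 3.03 ± 1.50. The gene was higher in tubular-like cells in the fit with no filter (log2 fold 3.08 ± 0.77, adjusted p = 0.00057, edgeR). Without mixed cells the fold was 3.03 ± 1.16 (adjusted p = 0.0528), at a pooled tubular-like level of 10.2 CPM from 11 UMIs, against 10.3 CPM from 22 with them. At the 10% mitochondrial limit the level was 24.6 CPM from 8 UMIs. Connecting tubule and principal-like cells held 10 of the 22 tubular UMIs (32.9 CPM), 5.02 times the other tubular-like cells (counting interval 1.94 to 12.7), and this was not tested.

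Of 35 other listed genes of the pathway, 11 passed the filter on low counts. These too can pass it through the classes where they are high, and the list was chosen with earlier results known. The counts of calls are therefore a description. In tubular-like cells 8 were higher and 2 lower (background 26.7% and 26%), with a median log2 fold of 1.25. The largest was Ptgfr, the prostaglandin F receptor, with 311 ± 49.5 CPM (SD, n = 4) and a log2 fold of 5.67 ± 0.21 (adjusted p = 1.2e-40, edgeR). Its 659 tubular UMIs included 573 from distal convoluted tubule-like cells (432 CPM), where it was higher than in the other tested tubular subclusters (2.13 ± 0.22, adjusted p = 3.1e-12, edgeR). Also higher in tubular-like cells were the reductase Ptgr2 (2.27), the prostaglandin E synthase Ptges2 (2.15), the phospholipases Pla2g12a (1.70) and Pla2g16 (0.98), the carbonyl reductase Cbr1 (1.50), Ptges3l (1.25) and the reductase Zadh2 (0.75). Lower were Slco2a1 (-2.78), a transporter that takes prostaglandins up, and the cytosolic synthase Ptges3 (-0.55).

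In podocyte-like cells 3 of the 11 were higher and 2 lower, with a median log2 fold of -0.34, near the background of 25.5% and 20.1%. The transporter Slco2a1 had 164 ± 19.9 CPM there and was higher (1.18 ± 0.13, adjusted p = 2e-12, edgeR), as were the aldose reductase Akr1b3 (0.89) and Ptges3 (0.22), while Ptgfr (-1.85) and Cbr1 (-0.50) were lower. In endothelial-like cells 2 were higher and 3 lower (background 27.7% and 20.5%, median -0.58): Pla2g16 (1.74) and Slco2a1 (1.39) rose above the other classes, and Ptges3l (-2.17), Ptgfr (-2.04) and Zadh2 (-1.13) lay below them. Slco2a1 reached 687 CPM in endothelial subcluster 4, and was higher there than in the other 3 endothelial subclusters (2.27 ± 0.27, adjusted p = 5.3e-11, edgeR). In mural-like cells Ptges3l (3.03) and Slco2a1 (0.88) were higher and Pla2g16 (-1.71) was lower (background 12% and 9.79%, median -0.18). In parietal epithelial-like cells edgeR called none of the 11, 1 had an unadjusted p under 0.05, and DESeq2 called 0 (background 10.1% and 4.63%, median -0.56).

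Mural-like cells also had the highest level of further genes of the pathway that did not pass the filter. The prostacyclin receptor Ptgir had 33.7 ± 26.3 CPM there (11 UMIs), the arachidonate-releasing phospholipase Pla2g4a 27.0 ± 23.3 (10 UMIs) and the EP2 receptor Ptger2 17.0 ± 22.5 (5 UMIs, with none in any other class). The thromboxane receptor Tbxa2r had 29.1 ± 13.7 in endothelial-like cells and 11.7 ± 2.50 in podocyte-like cells. Of the 9 lipoxygenase genes 2 were tested, and the leukotriene C synthase gene Ltc4s was higher in tubular-like (6.0) and endothelial-like cells (4.93, adjusted p = 3e-16, edgeR). Its fold could not be estimated in podocyte-like cells and had an SE of 28.43 in parietal epithelial-like cells. The sizes of its folds are therefore uncertain, and a gene can pass the filter through the classes where it is high.

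By pattern over the 20 library and class sums, the genes most like Ptger4 were Sh3d19 (Pearson's r = 0.931 on log2 of CPM plus 10), Upf3b (0.919) and Atp8b1 (0.910). Those most like Ptgis were Tagln (0.941), a smooth muscle gene, Csrp1 (0.922) and Mustn1 (0.911). Ptges was most like Krt18 (0.904), a simple epithelial keratin, and the claudins Cldn8 (0.896) and Cldn7 (0.892). For Ptgs1 they were Zmiz1 (0.861), Stard4 (0.854) and Smpdl3a (0.842), and for Ptgds Mat2b (0.862), Cbr4 (0.794) and Gpx3 (0.784). The sums share libraries and cell classes, and the genes named changed with the libraries used: none of the 3 genes was kept for Ptger4 without library 1 or library 3, for Ptges without library 3, or for Ptgds without library 2 or library 4.

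The bulk libraries compared dissociated, fixed and sorted cells with whole glomeruli, 1 library each, so the differences have no replicate check and no test. The dissociated library had 24555632 reads on genes and the whole library 28407317, and fewer cells of a type cannot be told apart from less RNA per cell. Scaled per exon length, Ptger4 was the highest of the 8 in both, at 84.0 transcripts per 1000000 (TPM) in dissociated cells and 73.8 in whole glomeruli. Ptgs1 was next in whole glomeruli (5.11 in dissociated cells, 29.4 in whole glomeruli) and Ptgds next in dissociated cells (11.7 against 7.01). Ptgis had 7.45 in dissociated cells and 5.43 in whole glomeruli, Ptges 3.11 and 4.30, Ptger3 1.40 and 3.49, Ptgs2 1.19 and 2.40, and Ptger1 0.755 and 4.32.

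Of the 7 members with at least 100 reads in either library, 1 was higher past 2-fold in dissociated cells and 2 were lower, where 10.8% of 12101 genes were higher and 19% lower. Ptgs1 had 135 reads in dissociated cells and 769 in whole glomeruli (log2 ratio -1.97, counting interval -2.25 to -1.71 on the log2 scale). Ptger1 had 28 and 159 reads (-1.91, interval -2.61 to -1.39). Ptgds, the higher one, had 131 and 78 reads (1.25, interval 0.863 to 1.70). Ptgis lay just inside the limit with 130 and 94 reads (0.98), and Ptger4 with 3798 and 3308 reads (0.73, interval 0.662 to 0.797), Ptges with 83 and 114 (0.07) and Ptger3 with 54 and 134 (-0.76) lay within 2-fold. On total reads in place of TMM scaling the median of all genes was -0.32, Ptgds was at 0.94, within 2-fold, and Ptger3 at -1.08.

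Ptgs2, known as an early-response gene, had 37 reads in dissociated cells and 74 in whole glomeruli, with a log2 ratio whose counting interval covered 0 (-0.45, interval -1.08 to 0.118). Mural-like cells held 74.2% of its Drop-seq UMIs, and summed mural markers were at 659 CPM in dissociated cells and 3476 in whole glomeruli. Whether Ptgs2 changed per cell was not tested. Of 23 listed immediate-early genes 18 were higher past 2-fold in dissociated cells and 0 were lower, where 10.8% of all genes were higher and 19% lower. The median log2 ratio was 2.91, and Egr2 (7.79), Atf3 (6.36) and Nr4a3 (5.64) led the list. It was chosen with earlier results of these data known, so the count is a description. The Drop-seq cells had all been dissociated and fixed, so their contrasts compare classes with each other and show no change on dissociation. By cell class, 16 of the 21 immediate-early genes tested were higher in podocyte-like cells and 4 lower (background 25.5% and 20.1%, median log2 fold 0.68). In mural-like cells, where Ptgs2 was found, 8 were higher and 9 lower (background 12% and 9.79%, median -0.09). Parietal epithelial-like cells had 13 higher and 3 lower (background 10.1% and 4.63%, median 0.58), endothelial-like cells 8 and 8 (27.7% and 20.5%, median -0.06) and tubular-like cells 1 and 19 (26.7% and 26%, median -1.06).

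**Figure D4:**
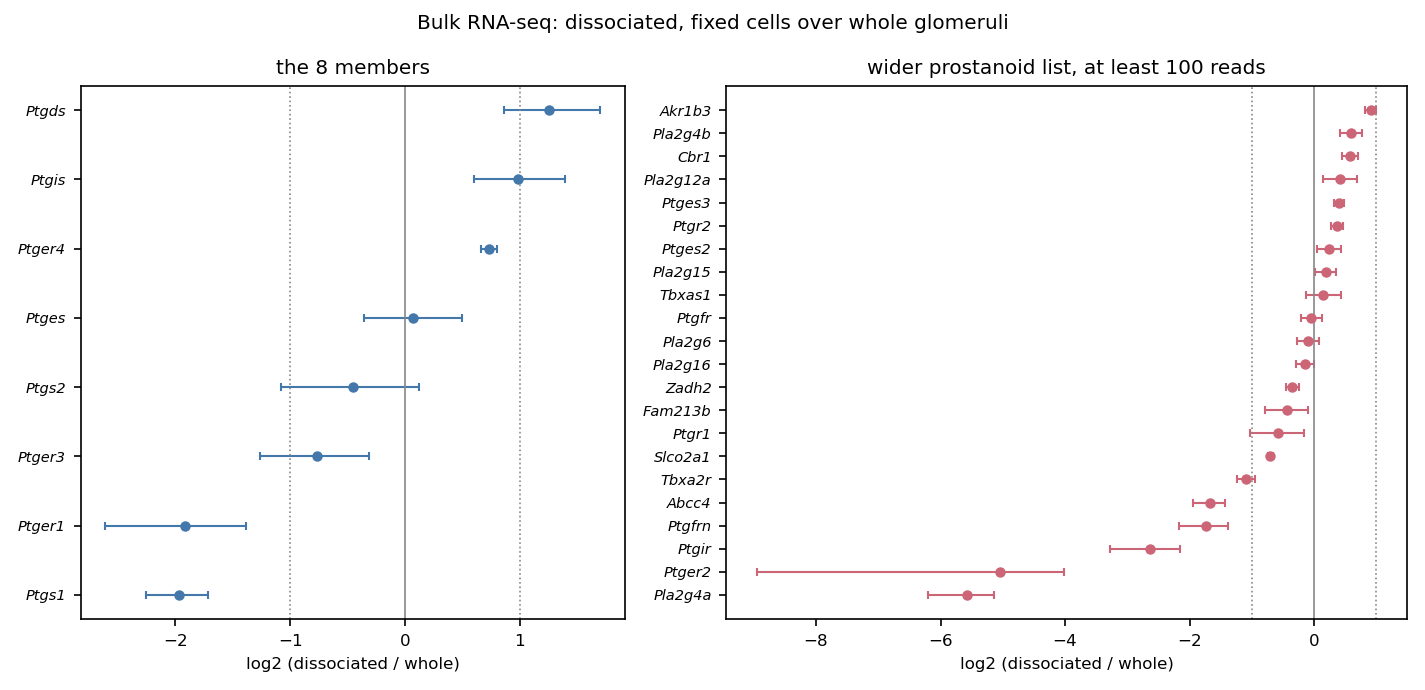
The log2 ratio of reads in dissociated, fixed cells over whole glomeruli for the 8 prostaglandin genes (left) and for the genes of the wider prostanoid list with at least 100 reads in either library (right), with 95% counting intervals and dotted lines at 2-fold. Ptgs1 and Ptger1 lie below the lower line, as do 6 genes of the wider list down to Pla2g4a (-5.58), and Ptgds lies above the upper one.

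In the wider list, 22 genes had at least 100 reads, of which 6 were lower past 2-fold in dissociated cells and 0 higher, where 19% of all genes were lower and 10.8% higher (median log2 ratio -0.12, and -0.01 over all genes tested). Pla2g4a fell to 32 reads in dissociated cells, against 2318 in whole glomeruli (-5.58). Ptger2 had 2 reads in dissociated cells and 171 in whole glomeruli (-5.05, interval -8.95 to -4.01), and Ptgir 31 and 290 (-2.63). Ptgfrn, a partner protein of the prostaglandin F receptor (66 and 323, -1.74), the exporter Abcc4 (148 and 686, -1.67) and Tbxa2r (529 and 1631, -1.09) were the other 3. Of these, Pla2g4a, Ptger2 and Ptgir had their highest Drop-seq level in mural-like cells among the tested classes, as had Ptgfrn, from 1 UMI. Of the lipoxygenase list 1 of 3 genes with at least 100 reads was lower, the platelet-type lipoxygenase Alox12 (173 and 811, -1.69).

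The cell-type markers of the same libraries differed as well. Summed mural markers were at 659 CPM in dissociated cells and 3476 in whole glomeruli (6 of 12 lower past 2-fold), endothelial markers at 1965 and 6504 (8 of 10 lower), tubular markers at 2203 and 2826, and podocyte markers at 46399 and 24429 (5 of 8 higher). Proximal tubule markers were at 4.91 CPM in dissociated cells and 598 in whole glomeruli (4 of 4 lower), and immune markers at 152 and 54.9 (6 of 9 higher). The part of cell-type makeup in the ratios of the prostaglandin genes was not tested. Over all barcodes the 4 Drop-seq libraries had 73.6, 57.7, 67.2 and 68.0 CPM of Ptger4 and 5.80, 9.98, 7.94 and 8.23 of Ptgs1.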

How the data were processed

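Drop-seq of glomerular cells (4 libraries) and bulk RNA-seq (1 library of dissociated cells, 1 of whole glomeruli) were analysed from the authors' deposited count tables: UMI counts per gene and cell, and read counts per gene. STAR and HTSeq are named in the submitters' processing notes, without versions, and the genome build and whether counting used strand are not given in the sources used here. The 8 genes and all lists were chosen with earlier results of these data known.

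Libraries held 3077 to 4623 barcodes and 3528543 to 6411775 UMIs. Cells were clustered with scanpy 1.11.5 (Python 3.11.15; 2000 variable genes, 30 components, 15 neighbours, Leiden resolution 1.0; 0.5 for subclusters), leaving the listed and mitochondrial genes out of the clustering, and named from fixed markers. No doublet caller was run, and cells with UMIs of at least 2 markers of another class were removed as an alternative. Counts summed per library and class were tested with edgeR 4.0.16 (R 4.3.3; quasi-likelihood, TMM, library as block, Benjamini-Hochberg threshold 0.05), and DESeq2 1.42.0 was an alternative. A fold was each class over the mean of the other 4. The block came from the design, since all classes of a library came from 1 cell suspension, and deviations from class means correlated at 0.0969 on average within a library (-0.0153 to 0.272) and at -0.0323 between libraries. On simulated counts of the 7639 genes, 98.9 to 100% of 4-fold changes were recovered, and of 2-fold changes 52.9% in mural-like, 52.4% in parietal epithelial-like and 90.1 to 100% in the other classes, with 4 to 11 false calls. The counts were drawn from 1 profile shared by all classes, with a common spread and no library effect. Only genes that passed the filter again were scored. Genes that had not passed it, such as Ptgs2 and Ptges, were not simulated, so these rates do not cover them.

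Bulk ratios used TMM and a prior count of 2, and transcripts per 1000000 (TPM) used GENCODE exon lengths. Intervals and floors (3 counts) cover counting error only. Gene positions are those of GENCODE M21. Of the 8 genes 6 had a RefSeq promoter. Named genes were all 8 members, genes of the wider list past the threshold (up to 8 per class), and those most like a member in pattern, which for Ptger1 are not reported here. Other settings were no filter, no TMM, no block, a minimum of 500 genes, a 10% mitochondrial limit, resolution 2, no mixed cells, each class against all other cells, each library left out, and, for bulk, other scalings and a prior of 0.5.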

Additional observations from a re-analysis of the deposited data

Results flagged for a closer look

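Ptgis in parietal epithelial-like cells stood apart in library 4, at 164.5 CPM where the other 3 libraries had 64.2 to 67.7. The gap was 0.965 of the range, above Dixon's 95% critical value for 4 samples. It was the only flag among 17 groups with at least 10 UMIs, and chance flags about 1 in 20 groups.

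The 1472 barcodes left out of the cell classes also held prostaglandin transcripts. They had 21.5 CPM of Ptgs1, 12.9 of Ptgis, 2.87 of Ptges, 17.2 of Ptgds, 17.2 of Ptger3 and 12.2 CPM of Ptger4, each above the 2.15 that a count of 0 allows. The 584 barcodes over the mitochondrial limit held all 24 of the left-out Ptger3 UMIs, all 30 of Ptgs1, 23 of 24 of Ptgds and 16 of 18 of Ptgis. Tubular markers made up 2.04% of the UMIs of these barcodes and podocyte markers 0.092%. The 888 barcodes with too few genes held 14 of the 17 Ptger4 UMIs, with podocyte markers at 0.906% and tubular markers at 0.426%. What these barcodes share beyond these values was not tested.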

How the results depend on the processing

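For the 3 genes that passed the filter, 11 of 15 pairs of gene and class were called. The count was 10 with no replicate block, 9 with no filter and 9 to 11 with a library left out, but 7 (of 10 tested) at 500 genes per cell, 4 (of 10) at a 10% mitochondrial limit and 5 (of 8) without mixed cells, where fewer cells left fewer pairs tested and parietal epithelial-like cells were too few. Of the other 5 genes 7 pairs were called without the filter, 6 with no replicate block and 3 at the 10% limit, choices combined after seeing the data. In subclusters 1 of 6 pairs was called, 1 with no replicate block, and 2 by DESeq2. Ptger4 in parietal epithelial-like cells turned to -0.02 against all other cells summed, and its call was lost with no filter (adjusted p = 0.0744, edgeR), at the 10% limit (0.0606) and without library 2 (0.0633). In tubular-like cells the 10% limit ended the Ptger4 call (-0.78, adjusted p = 0.412, edgeR). Ptger4 in endothelial-like cells had an adjusted p of 0.554 without mixed cells, and Ptgis there 0.0851. With single libraries left out, log2 folds stayed at 1.57 to 1.87 for Ptger4 in podocyte-like, 4.47 to 5.21 for Ptgis in mural-like and 2.55 to 3.20 for Ptgs1 in tubular-like cells. Fits whose SE could not be estimated gave no value. Bulk ratios on total reads were -2.28 for Ptgs1 and 0.41 for Ptger4. The cause was not tested where no construction is named. Counts of 1 to 53 UMIs limit Ptgs2, Ptges, Ptger1 and Ptger3.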
